A study of Oryctolagus cuniculus with 4 samples.

Results

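The cadherins, claudins, connexins and their close partners hold the cells of skin together, and they were followed here in rabbit ear hypertrophic scar (HS). The members were found by gene symbol: cadherins (CDH), protocadherins (PCDH), claudins (CLDN), connexins (GJA, GJB and GJC), the zonula occludens proteins TJP1 to TJP3, occludin (OCLN), JAM-A (F11R), the alpha and delta catenins (CTNNA and CTNND) and the nectins, leaving out CDH5, CDH19 and CLDN5. This gave 71 of the 13913 genes in the table. They were 16 cadherins, 23 protocadherins, 12 claudins, 10 connexins, 3 nectins, 4 catenins and 3 genes of the zonula occludens, occludin and JAM-A group.

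Single-cell libraries of the 10x Genomics type were compared between 2 untreated HS tissues (HS group) and 2 HS tissues given a patch of drug-loaded microneedles (MNs) every week for 3 weeks (drug-loaded MNs group). The needle tips stay in the skin and hold a peptide prodrug of 5-fluorouracil acetic acid, a derivative of the drug 5-fluorouracil. All rabbits were wild type and female, 10 to 12 weeks old at purchase, and all 4 tissues came from wounds cut on the ventral side of the ear, with harvest on day 43. Only the ventral epidermis and dermis were dissociated. The samples of a group are described as biologically independent, but whether they came from different rabbits was not stated, so the p-values measure only the spread between these 2 libraries a group. A group treated with drug-free MNs was not analysed here, so the drug and the needles cannot be told apart.

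In adherens junctions, cadherins bind between neighbouring cells and hold on to actin through the catenins, while nectins bind through afadin. In tight junctions, claudins and occludin seal the space between cells and are held by the zonula occludens scaffolds, and in gap junctions, connexins form channels from cell to cell. In epidermis, E-cadherin and P-cadherin, CLDN1 and a set of connexins belong to keratinocytes, whereas OB-cadherin (CDH11) and several protocadherins are known from fibroblasts and other mesenchymal cells. Each value below is the level of a gene over all cells of a library, given in units, where 1000000 units make up the library. More cells of a type and more RNA per cell can therefore not be told apart. Levels are not compared between genes, since it is not known whether they were corrected for length.

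Facts of the libraries that bear on these genes were as follows. Depth was unknown, and 11844 to 12059 genes were above 0 in a library. Mitochondrially encoded genes took 2.75% to 2.80% of the total in HS and 4.37% to 4.58% in drug-loaded MNs. The skin markers KRT5, KRT10, COL1A2 and DCN were above 0 in all libraries. Markers of fibroblasts (7 of 8 analysed, all higher, none at 0) summed to 23029 and 22559 units for HS and 44754 and 48717 units for drug-loaded MNs. Markers of macrophages (8 of 9 analysed, all higher, none at 0) summed to 132 and 140.1 units for HS and 313 and 308 units for drug-loaded MNs. HS replicate 1 held the most of the chondrocyte list (5 of 7 analysed), with sums of 1295 and 165 units for HS and 702 and 588 units for drug-loaded MNs, and drug-loaded MNs replicate 1 the most of the cycling list (5 of 7 analysed), with sums of 150.5 and 62.2 units for HS and 322 and 88.6 units for drug-loaded MNs. The part of these differences in the results below was not tested, unless a value is given.

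Of the 71 members, 56 were above 0 in all 4 libraries and 3 (CDH9, CDH10 and CLDN16) were listed at 0 in all of them. A mean of at least 1 unit was reached by 43, which were tested. The other 28 stayed at or under 1.53 units in every library. Among these was N-cadherin (CDH2), the neural and mesenchymal cadherin, at 0.502 and 0.190 units in the HS libraries and 1.26 and 0.451 units in the drug-loaded MNs libraries, named here outside the naming rule. For 2 tested members, GJA9 and PCDHB15, the mean of 1 group was below 1 unit. The members summed to 1465 and 2034 units for HS and 1838 and 1869 units for drug-loaded MNs. HS replicate 1 was thus the low library: it held the lowest value of 28 of the 43 tested members (65.1%), against 44.5% of all tested genes.

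**Figure D1:**
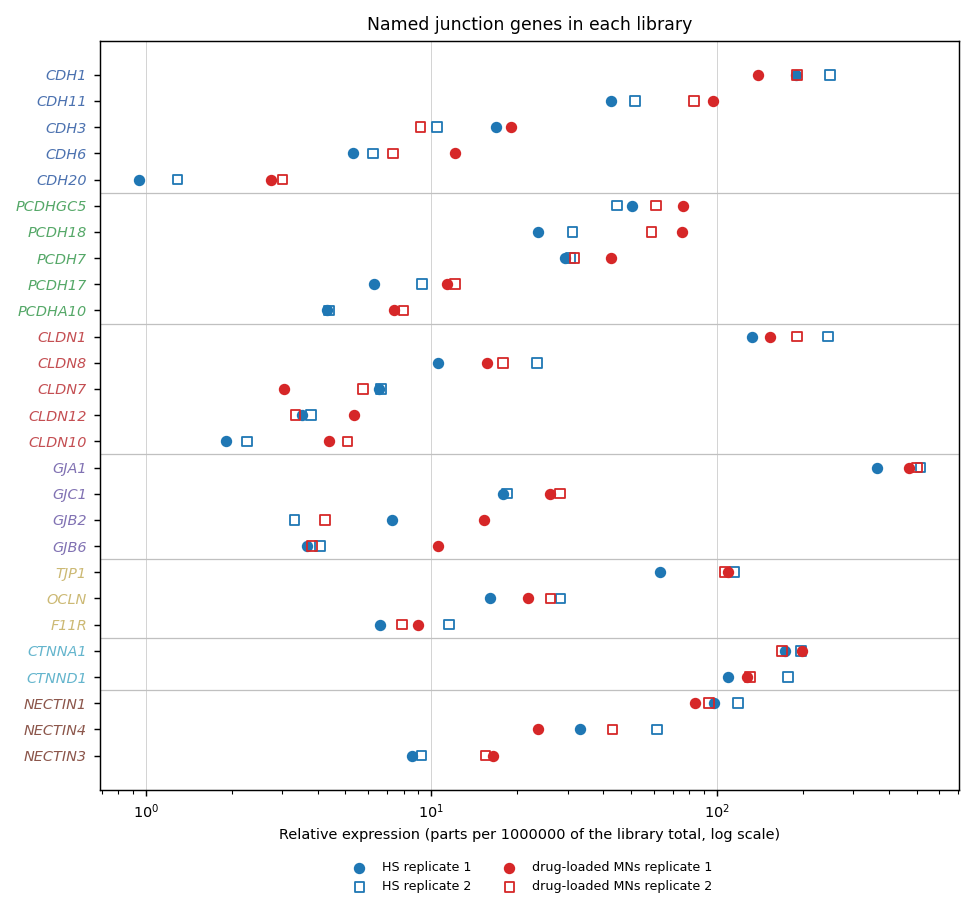
Level of 27 named junction genes in each library, in parts per 1000000 of the library total on a log scale, with families separated by lines; circles are replicate 1 and squares replicate 2. The groups stand apart in CDH11, PCDH18, NECTIN3, CLDN10 and GJC1, while in CDH1, CLDN1, TJP1 and OCLN they overlap and the HS libraries lie apart from each other.

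When drug-loaded MNs were set against HS, 0 of the 43 tested members passed an adjusted p of 0.05 in limma, where 0.0428% of all 9348 tested genes did. The smallest adjusted p of a member was 0.289. At an unadjusted p under 0.05 there were 6 members (13.95%), against 8.65% of all tested genes. All 6 were higher in drug-loaded MNs and 0 were lower, where the background was 7.26% and 1.39%. That number changed with 1 library left out, but such a fit leaves 1 library in a group, so the effect sizes are given instead. With 1 library left out, the log2 fold change ranged from 1.07 to 1.45 for PCDH18 and 0.78 to 1.06 for CDH11. It ranged from 0.81 to 0.98 for CLDN10 and 0.76 to 0.995 for CDH20. For NECTIN3 it was 0.73 to 0.82, and for PCDHA10 0.66 to 0.75. The groups did not overlap in 15 members (34.9%) with drug-loaded MNs higher, against 26.6% of all tested genes, and in 4 members (9.30%) with drug-loaded MNs lower, against 11.2%.

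As a whole the members lay close to the other genes. The log2 fold change was above 0 in 29 of 43 (67.4%), against 64.6% of all tested genes, and its median was 0.24, against 0.12 for all tested genes. The median of all genes was -0.0010 under median ratio scaling, so small changes are to be read against that shift, and the median of the members was then 0.15. Leaving out HS replicate 1 gave a median of 0.083 for the members, and leaving out HS replicate 2 gave 0.43. The gap between the HS libraries was larger than the difference of the groups in 22 members (51.2%), against 61.9% of all tested genes.

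**Figure D2:**
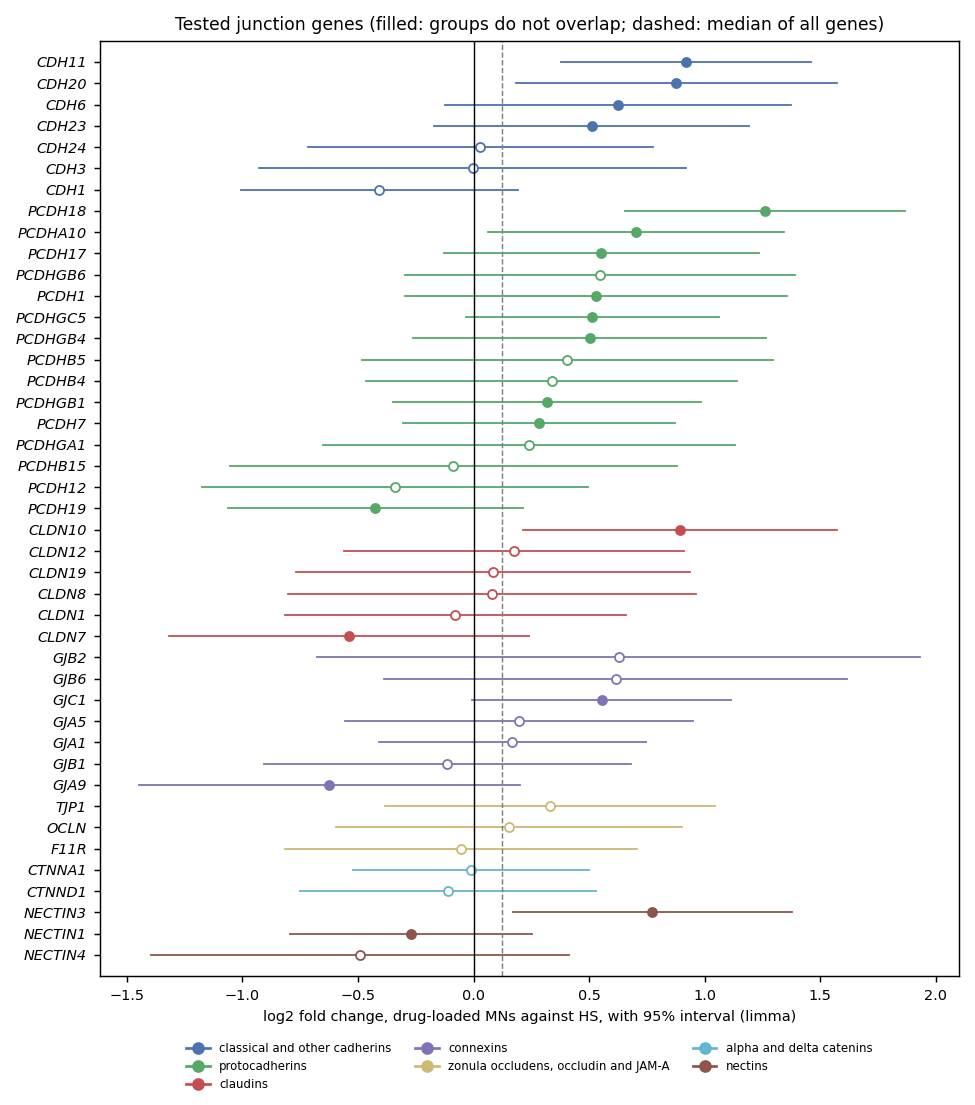
Log2 fold change of the 43 tested members, drug-loaded MNs against HS, on the log2(value + 1) scale with 95% intervals from limma, coloured by family; filled points are members whose groups do not overlap and the dashed line is the median of all tested genes (0.12). PCDH18 lies farthest to the right at 1.26 and GJA9 farthest to the left at -0.62, and the interval excludes 0 in 6 members.

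Among the cadherins, CDH11 was higher and CDH1 lower in drug-loaded MNs, and neither passed. CDH11, OB-cadherin, the classical cadherin of mesenchymal cells, stood at 42.5 and 51.6 units in the HS libraries and 96.5 and 83.1 units in the drug-loaded MNs libraries. Both drug-loaded MNs libraries were above both HS libraries. Its log2 fold change was 0.92 (SE 0.23, adjusted p in limma 0.335), and with 1 library left out it ranged from 0.78 to 1.06. CDH6, another type II cadherin, stood at 5.31 and 6.24 units in the HS libraries and 12.05 and 7.32 units in the drug-loaded MNs libraries. The groups did not overlap, but drug-loaded MNs replicate 2 was close to HS replicate 2. The log2 fold change of CDH6 was 0.63 (adjusted p in limma 0.692), and with 1 library left out it ranged from 0.30 to 0.95. CDH20, also of type II, was low, at 0.944 and 1.29 units in the HS libraries and 2.75 and 3.01 units in the drug-loaded MNs libraries, with a log2 fold change of 0.88 (adjusted p in limma 0.437). Close to 1 unit, this scale understates the change.

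E-cadherin (CDH1), which holds keratinocytes together, was the lower one. Its level was 189 and 249 units in the HS libraries and 139.6 and 190.1 units in the drug-loaded MNs libraries. HS replicate 2 was the highest library and drug-loaded MNs replicate 1 the lowest, while HS replicate 1 and drug-loaded MNs replicate 2 were alike. The log2 fold change was -0.41, with a 95% interval from -1.01 to 0.19 (adjusted p in limma 0.748). P-cadherin (CDH3), the cadherin of basal and follicle keratinocytes and the neighbour of CDH1 in the rabbit assembly mOryCun1.1, stood at 16.8 and 10.4 units in the HS libraries and 19.0 and 9.15 units in the drug-loaded MNs libraries. Here replicate 1 was high and replicate 2 low in both groups, and the log2 fold change of -0.0037 (95% interval from -0.93 to 0.92) was near 0. Its sign turned without HS replicate 1 (0.32), without drug-loaded MNs replicate 2 (0.49) and with a pseudocount of 5. Within each library, the log2 ratio of CDH11 to CDH1 was -2.12 and -2.25 for HS and -0.53 and -1.18 for drug-loaded MNs. This pair was chosen after its values were seen, the ratio is read only between libraries, and it was higher by 1.33 in drug-loaded MNs.

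CDH23, a cadherin of hair cells in the inner ear, stood at 2.57 and 2.92 units in the HS libraries and 3.87 and 4.83 units in the drug-loaded MNs libraries, and CDH24 had a log2 fold change of 0.030. Over the 7 tested cadherins the median was 0.51, with 5 higher (71.4%, against 64.6% of all tested genes). The groups did not overlap in 4, all higher in drug-loaded MNs, where 26.6% of all tested genes did so. The median of the cadherins was 0.25 under quantile normalization, 0.27 with a pseudocount of 5 and 0.31 with a minimum mean of 5. With no filter it was 0.058 over 14 cadherins. The 9 others in the table were not tested.

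Of the protocadherins, 12 of 15 tested were higher in drug-loaded MNs (80%, against 64.6% of all tested genes), and the median log2 fold change of the 15 was 0.41. Median ratio scaling gave 0.32 for it and quantile normalization 0.165. PCDH18, a protocadherin of the delta group, held the largest log2 fold change of all tested members, at 1.26 (SE 0.26, adjusted p in limma 0.289). Its level was 23.7 and 31.2 units in the HS libraries and 75.3 and 58.8 units in the drug-loaded MNs libraries. The lower of the drug-loaded MNs libraries was thus well above the higher of the HS libraries, and with 1 library left out the value ranged from 1.07 to 1.45. PCDH7, also of the delta group, stood at 29.4 and 30.7 units in the HS libraries and 42.6 and 31.7 units in the drug-loaded MNs libraries. Only drug-loaded MNs replicate 1 was clearly higher, and the log2 fold change of 0.28 was 0.075 without that library. PCDH17 stood at 6.30 and 9.26 units in the HS libraries and 11.3 and 12.1 units in the drug-loaded MNs libraries, with no overlap and a log2 fold change of 0.55 (adjusted p in limma 0.700).

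Protocadherins of the alpha, beta and gamma clusters made up 13 of the 23. Alpha genes share their last exons with one another, and so do gamma genes, and the libraries read the 3' ends of transcripts, so single alpha and gamma symbols cannot be told apart with certainty. Of 9 tested, 8 were higher in drug-loaded MNs, against 64.6% of all tested genes, and for the same reason they are not 9 separate readings. The median of the 9 was 0.41, and the median of the 6 tested protocadherins outside the clusters was also 0.41. PCDHGC5 stood at 50.2 and 44.6 units in the HS libraries and 75.8 and 61.0 units in the drug-loaded MNs libraries, with a log2 fold change of 0.51 (95% interval from -0.034 to 1.06). PCDHA10 stood at 4.30 and 4.38 units in the HS libraries and 7.41 and 7.98 units in the drug-loaded MNs libraries. Its replicates were close to each other in both groups, the log2 fold change was 0.70 (adjusted p in limma 0.519), and it kept between 0.66 and 0.75 with 1 library left out. PCDH19 was the only tested protocadherin whose groups did not overlap with drug-loaded MNs lower. It stood at 8.61 and 7.78 units in the HS libraries and 6.15 and 5.55 units in the drug-loaded MNs libraries, with a log2 fold change of -0.42.

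NECTIN3 was higher in drug-loaded MNs, while the other nectins were lower or overlapped. NECTIN3, which binds nectins on neighbouring cells, stood at 8.57 and 9.23 units in the HS libraries and 16.4 and 15.5 units in the drug-loaded MNs libraries. The replicates were near each other and the groups far apart, with a log2 fold change of 0.77 (SE 0.26, adjusted p in limma 0.428). NECTIN1, a nectin of keratinocytes, stood at 97.2 and 118 units in the HS libraries and 83.9 and 93.8 units in the drug-loaded MNs libraries. Both drug-loaded MNs libraries were below both HS libraries, by a log2 fold change of -0.27 (95% interval from -0.80 to 0.25). NECTIN4, a nectin of surface epithelium, stood at 33.2 and 61.6 units in the HS libraries and 23.6 and 43.1 units in the drug-loaded MNs libraries. Replicate 2 was the higher in both groups, and the log2 fold change of -0.49 was -0.055 without HS replicate 2, and it was -0.069 without drug-loaded MNs replicate 1.

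The catenins did not differ beyond the spread between replicates. CTNNA1, alpha-catenin, which links cadherins to actin, stood at 172 and 197 units in the HS libraries and 198 and 169 units in the drug-loaded MNs libraries, so the groups covered the same range. The 95% interval of its log2 fold change was -0.52 to 0.50. CTNND1, p120 catenin, which keeps cadherins at the membrane, stood at 109 and 177 units in the HS libraries and 127 and 130.2 units in the drug-loaded MNs libraries. The lowest and the highest library were both HS, and the log2 fold change of -0.11 was 0.24 without HS replicate 2. CTNNA2 and CTNND2, the neural forms, stayed under 1 unit.

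None of the 6 tested claudins passed, and 4 were higher and 2 lower in drug-loaded MNs. CLDN1, whose loss opens the epidermal barrier, stood at 133 and 244 units in the HS libraries and 153 and 191 units in the drug-loaded MNs libraries. HS replicate 1 was the lowest and HS replicate 2 the highest library, with both drug-loaded MNs libraries between them. The log2 fold change was -0.078 (95% interval from -0.82 to 0.66), and 0.36 without HS replicate 2, and it was 0.080 without drug-loaded MNs replicate 1. CLDN8, a barrier claudin, had the same order of libraries, at 10.5 and 23.4 units in the HS libraries and 15.7 and 17.8 units in the drug-loaded MNs libraries, and its log2 fold change of 0.080 was negative under median ratio and quantile scaling. CLDN7 stood at 6.55 and 6.66 units in the HS libraries and 3.06 and 5.75 units in the drug-loaded MNs libraries. It was lower in drug-loaded MNs without overlap, but its log2 fold change of -0.54 was -0.17 without drug-loaded MNs replicate 1.

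CLDN10, a claudin that forms ion channels between cells, stood at 1.91 and 2.26 units in the HS libraries and 4.38 and 5.09 units in the drug-loaded MNs libraries. The groups were far apart for their replicates, and the log2 fold change was 0.89 (SE 0.29, adjusted p in limma 0.420). CLDN12 stood at 3.51 and 3.78 units in the HS libraries and 5.36 and 3.34 units in the drug-loaded MNs libraries, with overlap. Over the 6 tested claudins the median was 0.082, which was -0.012 under median ratio scaling, -0.12 under quantile normalization and -0.35 without HS replicate 1, so no direction can be given for them. CLDN25, CLDN20, CLDN2, CLDN18 and CLDN17 were under 1 unit in every library.

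In the scaffold and partner proteins of tight junctions the HS libraries lay apart from each other and the groups overlapped. ZO-1 (TJP1) stood at 63.1 and 115 units in the HS libraries and 109 and 106 units in the drug-loaded MNs libraries. Only HS replicate 1 was low, and the other libraries were alike. Its log2 fold change of 0.33 was -0.098 without HS replicate 1. Occludin (OCLN) stood at 16.0 and 28.3 units in the HS libraries and 21.7 and 26.1 units in the drug-loaded MNs libraries, and JAM-A (F11R) at 6.60 and 11.5 units in the HS libraries and 8.95 and 7.89 units in the drug-loaded MNs libraries. In both, HS replicate 1 was the lowest and HS replicate 2 the highest. The log2 fold changes were 0.15 (95% interval from -0.59 to 0.90) and -0.053 (95% interval from -0.82 to 0.71). Without HS replicate 1 the value of OCLN was -0.24, and that of F11R was 0.31 without HS replicate 2. Leaving out drug-loaded MNs replicate 2 gave 0.028 for F11R.

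None of the 7 tested connexins passed, and 5 were higher and 2 lower in drug-loaded MNs. GJC1, a connexin of vessel walls and heart, stood at 17.8 and 18.4 units in the HS libraries and 25.9 and 28.2 units in the drug-loaded MNs libraries. The replicates nearly coincided, and the log2 fold change was 0.55 (SE 0.24, adjusted p in limma 0.585). GJA1, the most widespread connexin, stood at 362 and 515 units in the HS libraries and 469.9 and 501 units in the drug-loaded MNs libraries. HS replicate 1 alone was low, and the log2 fold change of 0.17 was -0.086 without it. GJA5, a connexin of arterial endothelium, stood at 1.71 and 1.02 units in the HS libraries and 1.42 and 1.97 units in the drug-loaded MNs libraries, with overlap. GJA9, low throughout, stood at 1.51 and 2.29 units in the HS libraries and 0.489 and 1.33 units in the drug-loaded MNs libraries and was the only tested connexin lower in drug-loaded MNs without overlap.

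GJB2 and GJB6, which neighbour each other in the assembly and are mutated in deafness with skin disease, were high in 1 library. GJB2 stood at 7.28 and 3.31 units in the HS libraries and 15.3 and 4.24 units in the drug-loaded MNs libraries. GJB6 stood at 3.66 and 4.08 units in the HS libraries and 10.5 and 3.82 units in the drug-loaded MNs libraries. GJA3, the next gene on the other side of GJB2, was low but had the same highest library, at 0.108 and 0 units in the HS libraries and 0.734 and 0.163 units in the drug-loaded MNs libraries. The high library of all 3 was drug-loaded MNs replicate 1. The log2 fold changes of GJB2 (0.63) and GJB6 (0.62) were -0.19 and -0.014 without it. The cycling markers were also highest in that library, with CENPF at 34.7 and 15.4 units in the HS libraries and 101 and 24.8 units in the drug-loaded MNs libraries, and their part was not tested. The median of the 7 tested connexins was 0.20, and -0.014 without drug-loaded MNs replicate 1.

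**Figure D3:**
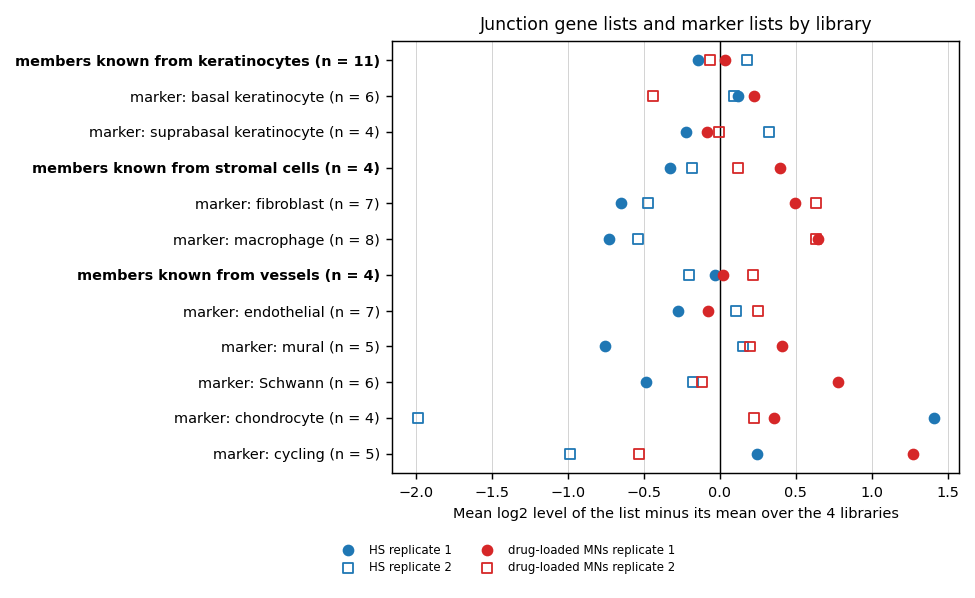
Mean log2 level of lists of members (bold) and of marker lists in each library, minus the mean of the list over the 4 libraries, with the number of tested genes in brackets. The stromal members are higher in both drug-loaded MNs libraries, as are the fibroblast and macrophage markers, while the libraries of the keratinocyte members overlap; the chondrocyte and cycling markers differ most within groups.

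The members were also read by the cell type they are known from. For keratinocytes 17 members were listed, of which 11 were analysed and tested, and the others were not analysed here. Of these, 4 were higher and 7 lower, and 0 had an unadjusted p under 0.05 in limma, against 8.65% of all tested genes. The groups did not overlap in 2, both lower (CLDN7 and NECTIN1). Among all tested genes, 11.2% were lower and 26.6% higher without overlap. The median of the 11 members was -0.053, and 0.16 without HS replicate 2. They summed to 519 and 761 units for HS and 494 and 592 units for drug-loaded MNs, with HS replicate 2 highest in 8 of the 11. The basal keratinocyte markers (6 of 8 analysed, 1 higher and 5 lower) summed to 8337 and 5769 units for HS and 7731 and 4081 units for drug-loaded MNs, and the suprabasal ones (4 of 10 analysed, 1 higher and 3 lower) to 36817 and 52315 units for HS and 31363 and 41238 units for drug-loaded MNs. None of these markers was at 0.

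For stromal cells, CDH2, CDH11, PCDH7, PCDH18 and PCDH19 were listed, and all but CDH2 were tested. Of the 4, 3 were higher without overlap, against 26.6% of all tested genes. The other 1 (PCDH19) was lower without overlap, against 11.2%, and the median of the 4 was 0.60. For vessels, 4 of 7 were analysed (GJA5, GJC1, PCDH12 and PCDH17), with a median of 0.37 and 3 higher. PCDH12, a protocadherin of endothelium, was the exception, at 5.19 and 2.59 units in the HS libraries and 2.37 and 3.12 units in the drug-loaded MNs libraries. The endothelial markers (7 of 9 analysed, 4 higher and 3 lower, none at 0) summed to 206 and 213 units for HS and 161 and 216 units for drug-loaded MNs. These sums overlapped, and VWF was their largest part, at 149 and 128 units for HS and 83.1 and 114 units for drug-loaded MNs. PECAM1 and CDH5 were higher without overlap, and VWF and TIE1 lower without overlap. The mural markers (5 of 8 analysed, all higher, 2 without overlap, none at 0) summed to 379.9 and 704 units for HS and 873 and 686 units for drug-loaded MNs.

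Since the fibroblast markers were higher as well, 8 members (CDH11, CDH6, PCDH18, PCDH7, PCDH19, PCDHGC5, NECTIN3 and GJC1) were set against them within each library, an alternative chosen after the values were seen. It takes the log2 level of a member minus the mean log2 level of the 7 fibroblast markers. For CDH11 this difference was -4.23 and -4.13 for HS and -4.21 and -4.56 for drug-loaded MNs. For PCDH18 it was -5.04 and -4.84 for HS and -4.56 and -5.05 for drug-loaded MNs. Against the fibroblast markers the groups overlapped in both genes, with differences of -0.20 and 0.14. NECTIN3 had -6.41 and -6.49 for HS and -6.69 and -6.91 for drug-loaded MNs, and GJC1 had -5.44 and -5.57 for HS and -6.06 and -6.08 for drug-loaded MNs. These were lower in drug-loaded MNs relative to the fibroblast markers, without overlap, with differences of -0.35 and -0.57. GJC1 is listed above for vessels, and it was not set against the mural markers, whose median log2 fold change was 0.60.

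PCDH19, at -1.55, PCDH7, at -0.84, PCDHGC5, at -0.61, and CDH6, at -0.50, were also lower relative to the fibroblast markers without overlap. The fibroblast markers had a median log2 fold change of 1.33 (from 0.58 to 1.46), but the subtraction takes their mean log2 level. That mean was 9.67 and 9.85 for HS and 10.81 and 10.95 for drug-loaded MNs. A member that rose less than this mean comes out lower on this scale. A gene at the median of all tested genes (0.12) would do so too. The share of all tested genes lower in this way was not taken. The same subtraction was made for the 11 keratinocyte members against the 10 basal and suprabasal markers. For CDH1 the difference was -2.32 and -2.13 for HS and -2.87 and -2.06 for drug-loaded MNs, so that drug-loaded MNs replicate 1 alone was low. CLDN1 had -2.82 and -2.15 for HS and -2.74 and -2.06 for drug-loaded MNs. Against these markers the groups overlapped in every one of the 11 except GJB6, so also in CLDN7 and NECTIN1. GJB6 had -7.66 and -7.75 for HS and -6.48 and -7.37 for drug-loaded MNs, so that both drug-loaded MNs libraries were higher relative to the markers. Its own level in drug-loaded MNs replicate 2 (3.82 units) lay between the HS libraries (3.66 and 4.08 units). The basal markers had their lowest sum in that library (4081 units).

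**Figure D4:**
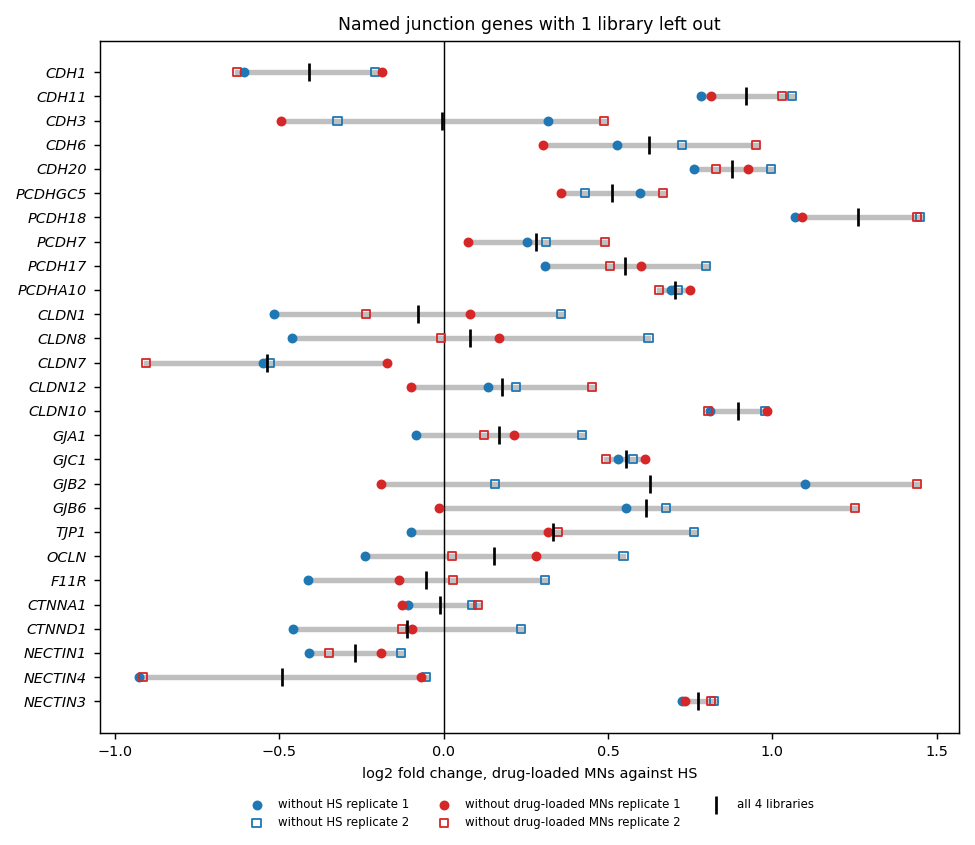
Log2 fold change of the 27 named members with all 4 libraries (black bar) and with each library left out in turn (points); the grey line spans the values with 1 library left out. PCDH18, CDH11, CLDN10, CDH20, NECTIN3, PCDHA10 and GJC1 stay above 0.49 whichever library is left out, while 12 of the others cross 0.

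Junction partners outside the families were listed as 46 symbols, of which 31 were analysed and 30 tested. Of these, 19 were higher and 11 lower, with a median of 0.070, which was -0.062 under median ratio scaling, so no direction can be given. The groups did not overlap in 7, all higher, where 26.6% of all tested genes were higher without overlap. Only 1, MPDZ, a scaffold of tight junctions, had an unadjusted p under 0.05 in limma, against 8.65% of all tested genes. MPDZ stood at 27.4 and 28.5 units in the HS libraries and 46.9 and 44.8 units in the drug-loaded MNs libraries. Its log2 fold change was 0.69 (adjusted p in limma 0.425). Beta-catenin (CTNNB1), which joins cadherins to alpha-catenin, stood at 223 and 239 units in the HS libraries and 259.6 and 226 units in the drug-loaded MNs libraries and did not differ beyond the replicates. Vinculin (VCL), which strengthens the link to actin, stood at 100.3 and 201 units in the HS libraries and 174 and 159 units in the drug-loaded MNs libraries, with HS replicate 1 low as in TJP1.

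Transcription factors that repress or keep the epithelial state, several of which act on CDH1, were listed as 18 symbols, with 9 tested. Of these, 4 were higher and 5 lower, and 0 passed in limma. The 4 higher ones were the repressing or mesenchymal part: PRRX1, ZEB2, TCF4 and ZEB1 (log2 fold change 0.57). The 5 lower ones were the part that keeps the epithelial state: GRHL3, OVOL2, TP63 (-0.18), GRHL2 (-0.13) and KLF5 (-0.012). The groups overlapped in TP63, GRHL2 and KLF5. They did not overlap in 4 higher and 2 lower, against 26.6% and 11.2% of all tested genes. At an unadjusted p under 0.05 there were 3 higher and 1 lower, where 7.26% and 1.39% of all tested genes were. PRRX1, a factor of mesenchyme, stood at 105 and 118 units in the HS libraries and 254 and 177 units in the drug-loaded MNs libraries, with a log2 fold change of 0.93 (adjusted p in limma 0.344). ZEB2, a repressor of CDH1, stood at 68.1 and 115 units in the HS libraries and 173 and 150.0 units in the drug-loaded MNs libraries, with a log2 fold change of 0.86 (adjusted p in limma 0.432). TCF4 had a log2 fold change of 0.82 (adjusted p in limma 0.352).

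GRHL3, a factor of epidermal barrier formation, was the only lower one at an unadjusted p under 0.05 in limma. It stood at 30.3 and 31.1 units in the HS libraries and 21.5 and 14.5 units in the drug-loaded MNs libraries. Both drug-loaded MNs libraries were below both HS libraries, with a log2 fold change of -0.76 (adjusted p in limma 0.474). OVOL2 was also lower without overlap, with a log2 fold change of -0.83 (adjusted p in limma 0.622). It stood at 10.95 and 11.6 units in the HS libraries and 8.95 and 3.79 units in the drug-loaded MNs libraries. SNAI1, SNAI2 and TWIST1 were not analysed here. PRRX1, ZEB2 and TCF4 are also expressed by fibroblasts, whose markers were higher in the same libraries, and that part was not tested.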

How the data were processed

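Relative expression was measured in 4 single-cell libraries (2 HS, 2 drug-loaded MNs) of 1 tissue each. The authors processed reads with Cell Ranger (2.1.1 in the submitters' processing notes) and Seurat, filtered cells, and deposited 1 signal per gene and library. The notes list mm10, a mouse build, although the gene identifiers are those of rabbit, so the build is uncertain. The table is named for FPKM, but each column summed to 10000. The methods describe a correction of batch effects across samples, but not by which tool nor whether the deposited values carry it. How cells were combined and how doublets were treated was not stated. Of the low values, 18.6% to 21.7% lay within 0.1 of whole steps, so reads were not recovered and no count model was run.

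Values were rescaled to 1000000 per library. Log2(value + 1) of the 9348 genes whose mean reached 1 unit was fitted with limma 3.58.1 (R 4.3.3, eBayes with trend, two-sided), without covariates, and p-values were adjusted by Benjamini-Hochberg over all these genes (threshold 0.05). An exact permutation test of 2 against 2 libraries cannot go below 0.333 and was not used. Named were the 4 highest tested members of each family, members at an unadjusted p under 0.05, and members without overlap whose log2 fold change was beyond 1 in size. Partners and transcription factors were named by unadjusted p, and the other genes in the text after their values were seen. Members and lists were chosen with earlier results of these data known. RefSeq symbols of mOryCun1.1 matched 59 of 71 members and gave neighbours only. Alternatives were 3 other scalings, 2 pseudocounts, 2 filters, 2 priors, a replicate block and leaving out each library.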

Additional observations from a re-analysis of the deposited data

How the results depend on the processing

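No member passed the threshold in limma in any of 14 alternatives except the replicate block, and 12 of the 27 named members turned sign in at least 1. Over all genes, 4 passed, against 0 with median ratio or quantile scaling, a total without abundant genes, a pseudocount of 5 and no filter, 1 without the variance trend, and 0 (without HS replicate 1) to 75 (without drug-loaded MNs replicate 2) with 1 library left out, with 48 without drug-loaded MNs replicate 1. Under the replicate block it was 241, and 2 members passed, PCDH18 (adjusted p in limma 0.00489) and CDH11 (adjusted p in limma 0.0499), as did PRRX1 (adjusted p in limma 0.0268). Same-numbered libraries share only a number: their deviations correlated at 0.22 across genes, and 2 pairs cannot establish a pairing. The median of the members (0.24) was 0.025 under quantile normalization and 0.083 to 0.43 with 1 library left out. At an unadjusted p under 0.05, quantile normalization gave 3 higher and 2 lower members, and no filter 7 and 2. Over all genes, the share of higher ones at that p was 83.9%, and 66.0% with median ratio and 58.9% with quantile scaling.

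CLDN8 was -0.044 with median ratio and -0.096 with quantile scaling, CLDN12 was -0.096 under quantile normalization and CDH3 was 0.0053 with a pseudocount of 5. With 1 library left out, log2 fold changes ranged from -0.49 to 0.49 for CDH3, -0.52 to 0.36 for CLDN1, -0.46 to 0.62 for CLDN8, -0.099 to 0.45 for CLDN12, -0.086 to 0.42 for GJA1, -0.19 to 1.44 for GJB2, -0.014 to 1.25 for GJB6, -0.098 to 0.76 for TJP1, -0.24 to 0.55 for OCLN, -0.41 to 0.31 for F11R, -0.13 to 0.10 for CTNNA1 and -0.46 to 0.24 for CTNND1. The cause was not tested. A lone library is there assumed to vary like the other group. A minimum mean of 5 left no value for CDH20, CLDN12 and CLDN10. The limits set by depth are not known, as the values carry no read numbers.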
